A study of Mus musculus with 24 samples.

Results

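The genes described here make triglyceride, package it into lipid droplets, coat the droplets or start their breakdown. They are Fitm1, Fitm2, Plin2, Plin4, Plin5, Cidec, Mogat1, Mogat2, Dgat2 and Pnpla2, and they were chosen by name and role with earlier results of these data known. A gene was read only from a probe set that carries its symbol alone, which measured 9 of the 10 among 18820 named genes, each by 1 probe set. The probe set of Fitm2 is listed with several symbols, so Fitm2 has no value here. Livers of 24 male C57BL/6 mice, fed chow and 9 to 12 weeks old, were profiled in 4 groups of 6 with 1 array per mouse. The groups were FXR KO mice (FXR-/-) given OCA, FXR KO mice given vehicle, wild-type (WT) mice given OCA and WT mice given vehicle. FXR, encoded by Nr1h4, is a nuclear receptor for bile acids, and OCA (obeticholic acid, INT-747) is an agonist of it. OCA was given by gavage at 10 mg/kg/day for 7 days, and all mice received the vehicle, 1% methyl cellulose. The FXR-/- line is a germline knockout, so FXR is missing from the gut and every other tissue as well as from the liver.

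Liver cells build triglyceride at the endoplasmic reticulum by adding fatty acids to glycerol. The monoacylglycerol acyltransferases Mogat1 and Mogat2 add a fatty acid to monoacylglycerol, and Dgat2 adds the last fatty acid to diacylglycerol. The Fitm proteins sit in the endoplasmic reticulum membrane and help to move the new triglyceride into droplets, perilipins (the Plin genes) coat those droplets, Cidec helps droplets to fuse and grow, and the lipase encoded by Pnpla2 (ATGL) takes the first fatty acid off again. In mouse liver Cidec and Mogat1 are known to be low on chow and to be induced in fatty liver, and Cidec is a known target of the nuclear receptor PPARγ.

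RefSeq windows of 250 bases before an annotated start (build GRCm38.p6) were at hand for 8 of the 10 genes, as 10 windows. RefSeq gives some genes several starts, and 5 of the windows reach into the gene's own annotated span, those of Plin2 and Plin4, both of Plin5 and the inner one of Cidec. Those of Mogat1 (chr1:78510810-78511059, plus strand), the outer start of Cidec (chr6:113435761-113436010, minus strand) and Fitm1 (chr14:55575424-55575673, plus strand) are shown because these genes stood higher in FXR KO liver under both treatments. All 3 lie outside the gene's span, run 5′ to 3′ towards the start, and are in lower case because they hold none of the motifs searched.
Mogat1: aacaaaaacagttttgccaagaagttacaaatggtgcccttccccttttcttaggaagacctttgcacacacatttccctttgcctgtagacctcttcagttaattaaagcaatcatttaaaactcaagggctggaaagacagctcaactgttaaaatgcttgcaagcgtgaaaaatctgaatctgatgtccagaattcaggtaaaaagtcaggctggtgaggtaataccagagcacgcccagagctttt
Cidec: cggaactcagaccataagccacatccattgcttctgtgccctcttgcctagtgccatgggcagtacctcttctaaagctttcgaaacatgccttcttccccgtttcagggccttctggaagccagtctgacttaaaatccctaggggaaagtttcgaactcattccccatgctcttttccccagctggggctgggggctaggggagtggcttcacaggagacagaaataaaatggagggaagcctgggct
Fitm1: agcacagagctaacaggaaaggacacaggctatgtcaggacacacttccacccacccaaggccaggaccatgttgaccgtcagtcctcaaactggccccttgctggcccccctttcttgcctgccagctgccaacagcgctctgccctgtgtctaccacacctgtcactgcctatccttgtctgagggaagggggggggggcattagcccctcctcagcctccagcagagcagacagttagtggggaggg
AGGTCA, the core site of many nuclear receptors, was found on either strand in 2 of the 10 windows, those of Plin2 and of the outer start of Plin5, and in 14.0% of all 32851 RefSeq windows of this length. AGGTCANAGGTCA, a direct repeat of that core, and AGGTCANTGACCT, an inverted repeat, overlap the shorter motif and were searched on both strands. Neither was found in these 10 windows, and they were present in 0.033% and 0.006% of all windows. A match or its absence in such a window says nothing of binding.

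All values are log2 expression values as deposited, and differences between groups are log2 differences with the tested condition on top. Array medians ran from 4.57 to 4.65, and the means of genes over all arrays had a median of 5.28 and a 5th percentile of 2.31. No detection calls were used, so low levels may be background, and the number of arrays limits the precision. Nr1h4 itself overlapped between genotypes (9.80 to 10.05 in FXR KO OCA, 9.88 to 10.13 in FXR KO vehicle, 9.85 to 10.28 in WT OCA and 9.96 to 10.30 in WT vehicle livers), so its probe set does not check the genotype, and its place relative to the deleted part is not stated in the sources at hand. Nr0b2, a known FXR target, did not overlap, at 3.40 to 4.82 in the 12 FXR KO livers and 5.87 to 8.62 in the 12 WT livers. The mean of 6 hepatocyte markers was high on every array and did not overlap between genotypes, at 12.24 to 12.36 in the FXR KO livers and 12.47 to 12.54 in the WT livers. WT vehicle replicate 6 stood apart, with 532 genes more than 2-fold from the mean of the other 5 arrays of its group against at most 90 for any other array. Array names carry a code number of 5, 7 or 9 whose meaning the sources at hand do not state. All FXR KO OCA arrays had number 9 and all WT OCA arrays number 5, FXR KO vehicle arrays were split into 2 of number 9 and 4 of number 7, and WT vehicle arrays into 2 of number 5 and 4 of number 7.

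**Figure D1:**
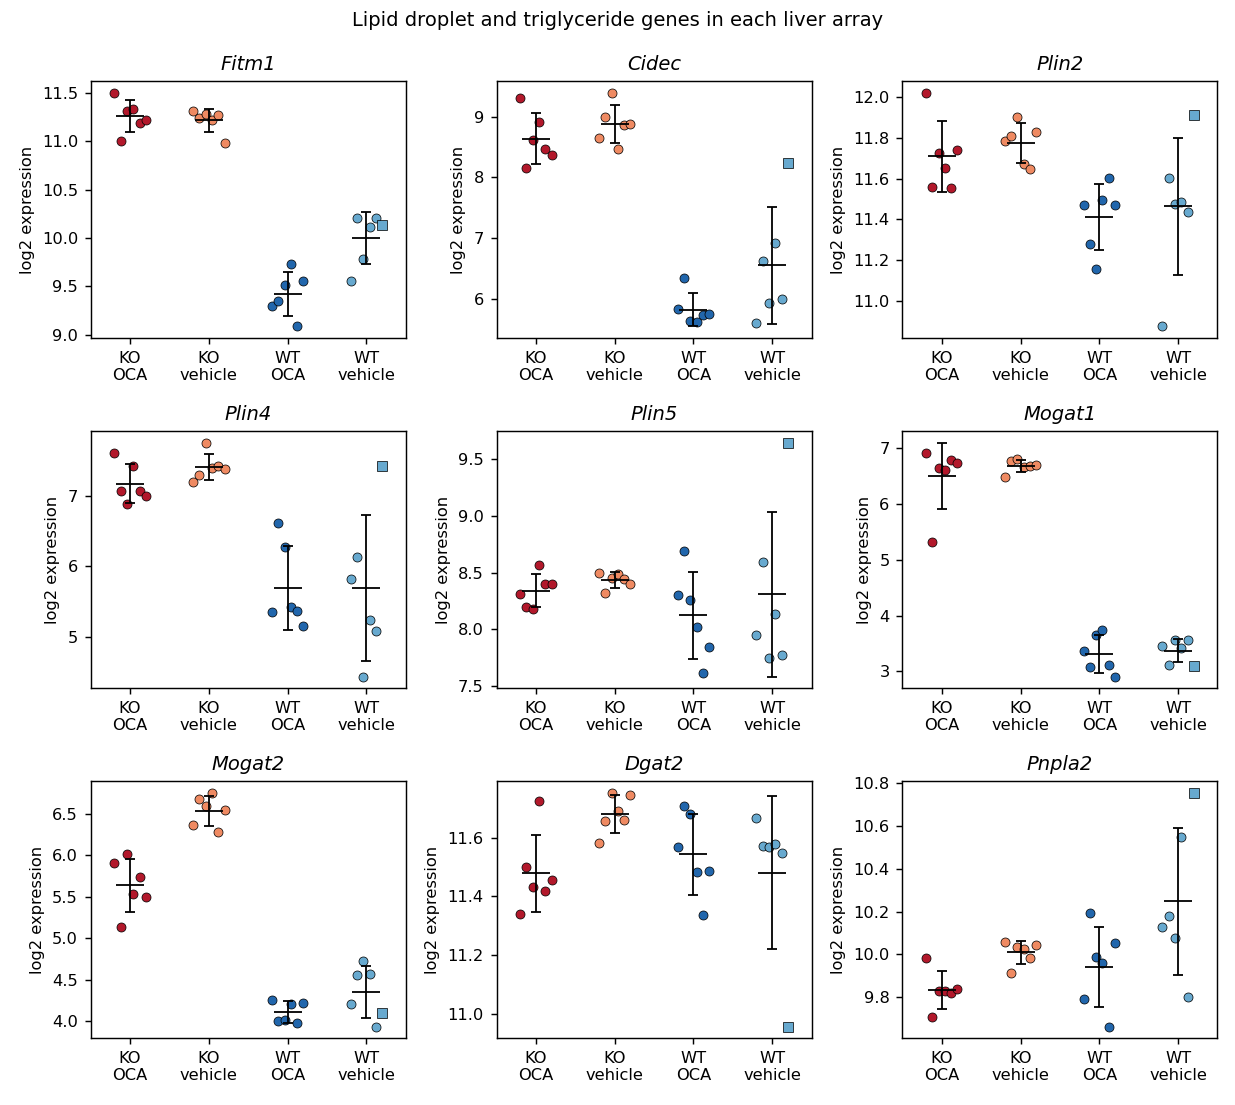
Log2 expression (y axis) of the 9 measured genes in each of the 24 livers, 1 panel per gene, with FXR KO OCA, FXR KO vehicle, WT OCA and WT vehicle livers along the x axis (n = 6 each), points for arrays and bars for mean ± SD. The square marks WT vehicle replicate 6. Fitm1, Mogat1 and Mogat2 lie higher in all FXR KO livers than in any WT liver.

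Without FXR, 6 of the 9 measured genes were higher under vehicle, led by Mogat1 (9.89-fold), Cidec (5.02-fold), Mogat2 (4.57-fold), Plin4 (3.30-fold) and Fitm1 (2.33-fold), with a smaller difference for Plin2 (1.24-fold). None was called lower, and Plin5, Dgat2 and Pnpla2 were not called. Over all genes 15.4% were called higher and 12.1% lower in this comparison (limma, adjusted p under 0.05). The median difference of the 9 genes was 1.22, against −0.03 over all genes. The same 5 leading genes were higher in FXR KO livers under OCA, 5 of 9, with 0 lower, where 17.4% of all genes were called higher and 13.3% lower. There the median of the 9 was 1.47, against −0.02 over all genes. Livers were measured as bulk tissue, in which fewer cells of a type and less RNA per cell cannot be told apart.

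Mogat1 gave the largest difference of the 9 genes in the values as deposited, although Cidec exceeded it under OCA when the array code number was a block. Under vehicle it ran from 6.48 to 6.79 in FXR KO livers (median 6.68) and from 3.10 to 3.57 in WT livers (median 3.44). Under OCA it ran from 5.31 to 6.92 in FXR KO livers (median 6.68) and from 2.91 to 3.74 in WT livers (median 3.25). The genotypes were far apart under both treatments, and WT levels lay near the lower end of the scale. The log2 difference between FXR KO and WT livers was 3.31 ± 0.19 under vehicle (SE, limma adjusted p = 9.22e-13) and 3.18 ± 0.19 under OCA (9.09-fold, limma adjusted p = 1.92e-12). By group means, FXR KO OCA (6.50 ± 0.59, SD, n = 6) stood beside FXR KO vehicle (6.68 ± 0.11), and WT OCA (3.31 ± 0.33) beside WT vehicle (3.37 ± 0.21), and neither pair differed beyond its spread.

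Mogat2, the second monoacylglycerol acyltransferase and best known from the intestine, had 3 levels rather than 2 by its ranges. It ran from 5.14 to 6.01 in FXR KO OCA livers (median 5.64), from 6.28 to 6.75 in FXR KO vehicle livers (median 6.57), from 3.98 to 4.26 in WT OCA livers (median 4.10) and from 3.93 to 4.73 in WT vehicle livers (median 4.38). The FXR KO groups overlapped neither each other nor the WT groups, while the WT groups overlapped. The OCA call between the FXR KO groups, given below, was lost under 6 of 13 other settings. FXR KO exceeded WT livers by 2.19 ± 0.14 under vehicle (limma adjusted p = 3.12e-12) and by 1.53 ± 0.14, or 2.89-fold, under OCA (limma adjusted p = 2.24e-09). Of 5 enterocyte markers, Fabp2 was lower in FXR KO livers under vehicle (−1.58 ± 0.10, limma adjusted p = 3.81e-12) and the other 4 were not called. Over all genes 15.4% were higher and 12.1% lower there. Under OCA 0 of the 5 were higher and 1 lower, against 17.4% and 13.3% of all genes.

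Dgat2, which completes triglyceride and lies next to Mogat2 on chromosome 7, did not share this pattern. Its level was 11.58 to 11.75 in FXR KO vehicle livers (median 11.68) and 10.96 to 11.67 in WT vehicle livers (median 11.57). The ranges overlapped, and 5 of the 6 WT vehicle livers read 11.55 to 11.67, above replicate 6. The difference was 0.20 ± 0.09 under vehicle (95% interval 0.01 to 0.39, limma adjusted p = 0.118) and −0.07 ± 0.09 under OCA (limma adjusted p = 0.656), where FXR KO livers averaged 11.48 ± 0.13 and WT livers 11.54 ± 0.14 (SD, n = 6).

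Fitm1 separated the genotypes with little spread. It ran from 10.98 to 11.31 in FXR KO vehicle livers (median 11.25) and from 9.55 to 10.21 in WT vehicle livers (median 10.13). Under OCA the ranges were 11.00 to 11.50 in FXR KO livers (median 11.26) and 9.09 to 9.73 in WT livers (median 9.43). No FXR KO array reached down to a WT array. The difference was 1.22 ± 0.11 under vehicle (limma adjusted p = 5.24e-09) and 1.84 ± 0.11, or 3.57-fold, under OCA (limma adjusted p = 2.72e-12).

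Cidec, whose product promotes droplet fusion, gave the second largest of the 9 differences in the values as deposited. It ran from 8.47 to 9.40 in FXR KO vehicle livers (median 8.87) and from 5.60 to 8.24 in WT vehicle livers (median 6.31). The genotypes did not overlap, yet WT vehicle replicate 6, at 8.24, came close to the FXR KO range, while the other 5 WT vehicle arrays ended at 6.91. In OCA-treated livers Cidec ran from 8.15 to 9.31 in FXR KO mice (median 8.53) and from 5.62 to 6.35 in WT mice (median 5.74). The difference was 2.33 ± 0.30 under vehicle (limma adjusted p = 9.72e-07) and 2.82 ± 0.30, or 7.07-fold, under OCA (limma adjusted p = 4.15e-08).

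The perilipins, which coat the droplet surface, were not alike. Plin4 ran from 7.19 to 7.75 in FXR KO vehicle livers (median 7.39) and from 4.43 to 7.42 in WT vehicle livers (median 5.53). These ranges overlapped through WT vehicle replicate 6 alone, since the other 5 WT vehicle arrays ended at 6.13. The Plin4 difference was 1.72 ± 0.33 under vehicle (limma adjusted p = 0.00021) and 1.47 ± 0.33 under OCA (2.78-fold, limma adjusted p = 0.000931), where FXR KO livers read 6.88 to 7.60 and WT livers 5.14 to 6.61 with no overlap. Plin5, its neighbour on chromosome 17 and a coat protein of tissues that burn fat, differed by 0.13 ± 0.22 under vehicle (95% interval −0.33 to 0.58, limma adjusted p = 0.726). Its FXR KO vehicle arrays were tightly grouped at 8.32 to 8.50, inside the WT vehicle range of 7.75 to 9.64. Under OCA Plin5 averaged 8.34 ± 0.14 in FXR KO livers and 8.12 ± 0.38 in WT livers (SD, n = 6, limma adjusted p = 0.502).

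Plin2, the main perilipin of liver droplets, ran from 11.65 to 11.90 in FXR KO vehicle livers (median 11.80) and from 10.88 to 11.91 in WT vehicle livers (median 11.48). The ranges overlapped. Plin2 exceeded the threshold narrowly under vehicle, at 0.31 ± 0.12 (limma adjusted p = 0.0496), and missed it under OCA, at 0.30 ± 0.12 (limma adjusted p = 0.0562), with 11.55 to 12.02 in FXR KO livers and 11.16 to 11.60 in WT livers. The vehicle call was lost when any 1 of 9 of the 12 arrays was left out, lowest at 0.19 without WT vehicle replicate 1 (limma adjusted p = 0.148). It was also lost under 7 of 14 other settings. Among these were median centring (limma adjusted p = 0.306), the fit on the compared groups alone (0.101), the code letter as a block (0.0961) and omission of arrays ending in _2 (0.0752). Under OCA a call was gained with quantile normalization (0.36, limma adjusted p = 0.012), array weights (0.33, limma adjusted p = 0.0156), the fit on the compared groups alone (limma adjusted p = 0.0241) and a filter at the median gene (limma adjusted p = 0.0366). It was also gained when any 1 of 3 of the 12 arrays was left out, FXR KO OCA replicates 2 and 5 and WT OCA replicate 5 (limma adjusted p of 0.041 to 0.0491).

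Pnpla2, the lipase of the set, had a lower mean in FXR KO livers under both treatments, and neither difference was called. Its level was 9.91 to 10.06 in FXR KO vehicle livers and 9.80 to 10.75 in WT vehicle livers, with 9.71 to 9.98 in FXR KO OCA livers and 9.66 to 10.19 in WT OCA livers. The FXR KO arrays lay within the WT range under each treatment. The difference was −0.24 ± 0.11 under vehicle (95% interval −0.47 to −0.01, limma adjusted p = 0.122) and −0.11 ± 0.11 under OCA (limma adjusted p = 0.52).

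**Figure D2:**
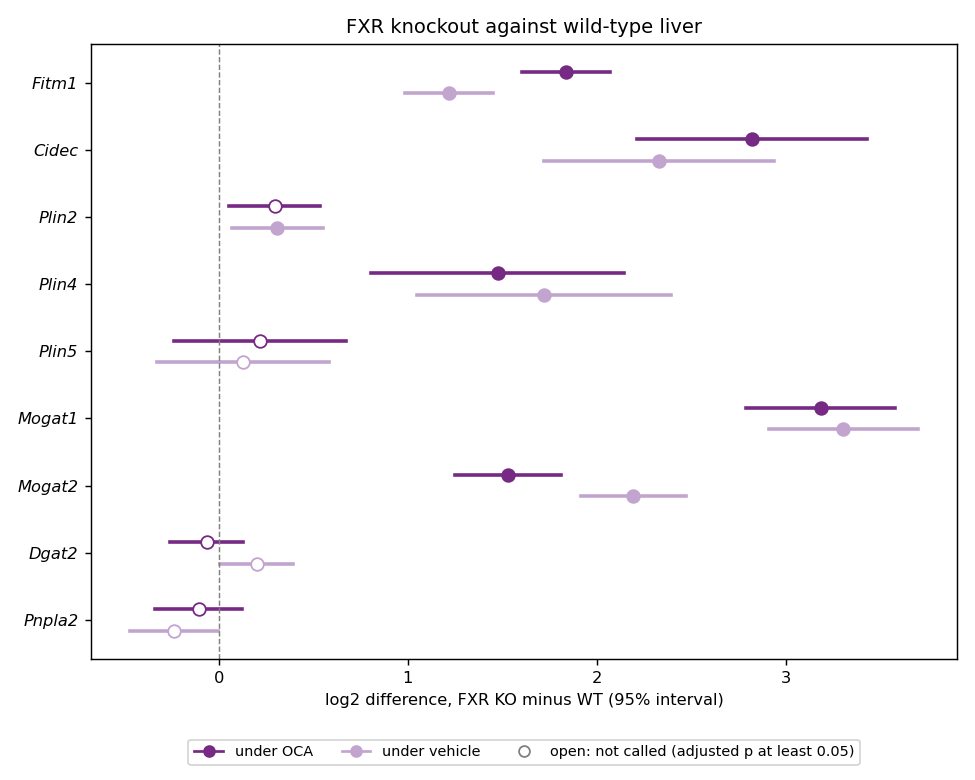
Log2 difference between FXR KO and WT livers (x axis) for the 9 genes, under OCA and under vehicle, with 95% intervals from limma. Filled points passed adjusted p under 0.05 and open points did not. Mogat1 stands at 3.18 under OCA and 3.31 under vehicle, and the intervals of Plin5 include 0 under both treatments.

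By the ranges alone, 4 of the 9 genes (Fitm1, Cidec, Mogat1 and Mogat2) had every FXR KO vehicle array above every WT vehicle array, against 9.4% of all genes, and 0 had the reverse, against 5.67%. Under OCA 5 of 9 did, the same 4 and Plin4, against 10.9% of all genes, and 0 had the reverse, against 7.48%. Within array code number 7, which holds 4 FXR KO and 4 WT vehicle livers, the differences were 3.32 for Mogat1, 2.64 for Cidec, 2.03 for Mogat2, 2.08 for Plin4 and 1.28 for Fitm1, with limma adjusted p at most 0.000612. Plin2 stood at 0.40 there (limma adjusted p = 0.0747). Under OCA the code number and the genotype cannot be told apart directly, because every FXR KO array had number 9 and every WT array number 5. With the number as a block, which links the 2 through the vehicle arrays, the OCA differences were 3.22 for Mogat1, 3.74 for Cidec, 2.01 for Fitm1, 2.56 for Plin4 and 1.05 for Mogat2 (limma adjusted p = 0.0163 for Mogat2 and 0.024 for Plin4, lower for the others). With that block and without WT vehicle replicate 6, Plin4 (1.40, limma adjusted p = 0.207) and Mogat2 (0.97, limma adjusted p = 0.0639) were no longer called.

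OCA moved few of these genes. In WT livers 1 of 9 was called lower and 0 higher, against 0.0372% and 0.0319% of all genes, and that gene was Fitm1. Its level in WT OCA livers was 9.09 to 9.73 (median 9.43), against 9.55 to 10.21 in WT vehicle livers (median 10.13). The ranges overlapped, since WT vehicle replicate 1 read 9.55. None of the 9 genes separated the WT groups in either direction, against 0.191% of all genes above and 0.266% below. The difference was −0.58 ± 0.11, 1.49-fold lower (95% interval −0.81 to −0.34, limma adjusted p = 0.0411). This call was lost when any 1 of 9 of the 12 arrays was left out, with differences of −0.67 to −0.51 and adjusted p up to 0.117. Within array code number 5, where 6 OCA livers stand against 2 vehicle livers, it was −0.75 (limma adjusted p = 0.181). With the number as a block over all arrays it had the same size and was called (limma adjusted p = 0.0106). Of 14 other settings in all, the Fitm1 call was kept under 7 and lost under 7.

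Cidec had the largest OCA difference among the 9 in WT livers and did not pass. It averaged 5.82 ± 0.27 in WT OCA livers and 6.55 ± 0.96 in WT vehicle livers (SD, n = 6), a difference of −0.73 ± 0.30 (95% interval −1.34 to −0.12, limma adjusted p = 0.417). The vehicle mean contains replicate 6, and without it the difference was −0.40 (limma adjusted p = 0.575). Within code number 5 it was −1.30 (limma adjusted p = 0.334), set against vehicle replicates 5 and 6 only. Pnpla2 differed by −0.31 ± 0.11 (limma adjusted p = 0.352) and Mogat2 by −0.24 ± 0.14 (limma adjusted p = 0.625), and the other 5 lay between −0.18 and 0.06 with adjusted p of 0.856 or more. Mogat2 turned to 0.10 within code number 5 (limma adjusted p = 0.796), and Plin4, at 0.01 over all arrays, to −0.55 (limma adjusted p = 0.754).

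In FXR KO livers, which lack the receptor that OCA binds, 1 of 9 genes was called lower with OCA and 0 higher, against 0.0106% and 0.00531% of all genes. That gene, Mogat2, had the smallest p of all 18820 genes in this comparison. The ranges given above, 5.14 to 6.01 with OCA and 6.28 to 6.75 with vehicle, did not overlap, a pattern seen in this direction for 0.351% of all genes and in the other for 0.303%. The difference was −0.90 ± 0.14, 1.87-fold lower (95% interval −1.18 to −0.62, limma adjusted p = 0.0119). These vehicle arrays also enter the genotype comparison above, so the 2 results are not independent. The OCA difference was not called without FXR KO vehicle replicate 2 (−0.87, limma adjusted p = 0.0549) or FXR KO OCA replicate 6 (−0.87, limma adjusted p = 0.0599). Within code number 9, with 6 OCA and 2 vehicle livers, the size was kept at −0.89 (limma adjusted p = 0.608). The 2 FXR KO vehicle livers of number 9 averaged 6.53 and the 4 of number 7 averaged 6.55.

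The remaining 8 genes lay between −0.24 and 0.04 with OCA in FXR KO livers, all with adjusted p of 0.942 or more. Dgat2, at 11.34 to 11.72 with OCA and 11.58 to 11.75 with vehicle, differed by −0.20 ± 0.09 (95% interval −0.39 to −0.01). Fitm1 differed by 0.04 ± 0.11 in FXR KO livers. The difference between the OCA effects, FXR KO minus WT, was 0.62 ± 0.16 for Fitm1 (95% interval 0.29 to 0.95, limma adjusted p = 0.331) and −0.66 ± 0.19 for Mogat2 (95% interval −1.06 to −0.27, limma adjusted p = 0.446). No gene passed this test in limma, 0% of all genes, although 1140 had an unadjusted p under 0.05 where 941 would by chance, among them these 2 of the 9. With array weights 2 genes were called, and with the code number as a block 34. An OCA effect of Fitm1 or Mogat2 in 1 genotype only is therefore not shown.

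**Figure D3:**
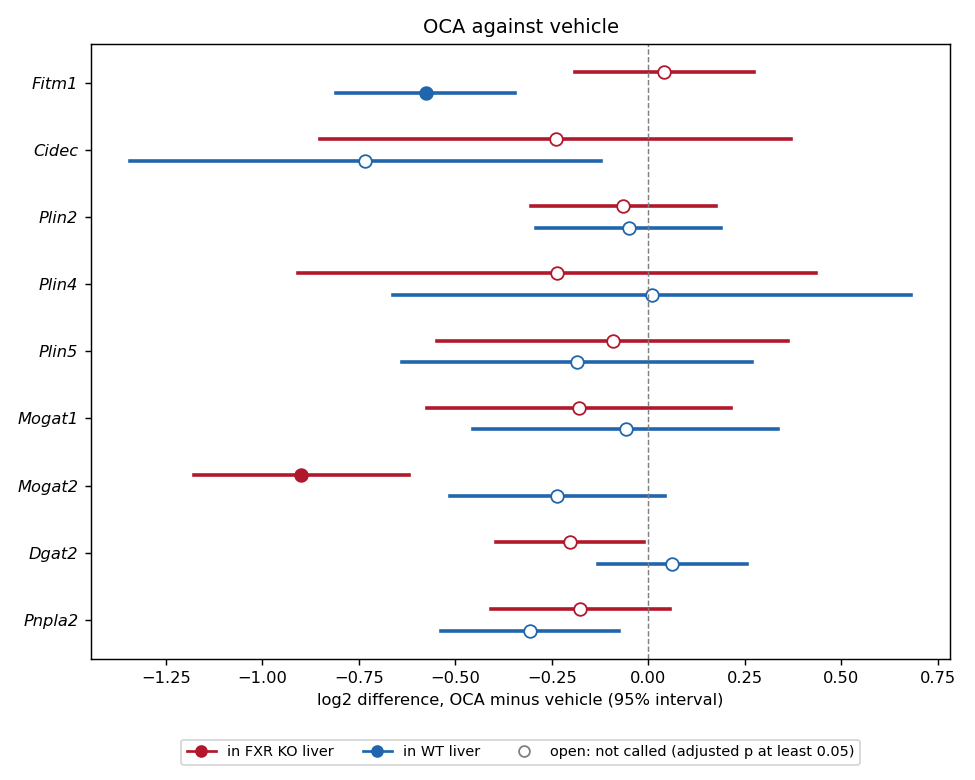
Log2 difference between OCA and vehicle livers (x axis) for the 9 genes, in FXR KO and in WT mice, with 95% intervals from limma. Filled points passed adjusted p under 0.05, which Mogat2 did in FXR KO livers (−0.90) and Fitm1 in WT livers (−0.58), and open points did not.

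The spread among WT vehicle livers was itself uneven over these genes. Replicate 6 read 7.42 for Plin4, 9.64 for Plin5 and 8.24 for Cidec, which is 2.08, 1.60 and 2.03 above the mean of the other 5 arrays. Pnpla2 was 0.61 above and Plin2 0.53 above that mean, while Dgat2 was 0.63 below it. Mogat1 (−0.32), Mogat2 (−0.30) and Fitm1 (0.16) were closer to the rest of the group. The array was thus high for Plin4, Plin5 and Cidec without being high for Mogat1. Other genes of these families were closer to the group, whose means below include the array. Plin1 read 4.20 against 4.26, Plin3 8.23 against 8.05, Cidea 3.17 against 2.85 and Cideb 12.03 against 12.04. Of all 18820 genes, 532 lay more than 2-fold from the mean of the other 5 arrays. With replicate 6 left out, FXR KO exceeded WT vehicle livers by 2.67 for Cidec, 2.07 for Plin4 and 0.40 for Plin2 (limma adjusted p = 0.00628). Plin5 was then called narrowly at 0.39 (limma adjusted p = 0.0498), which makes 7 of 9 higher and 0 lower. Over all genes 15.8% were higher and 13.2% lower in that fit.

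**Figure D4:**
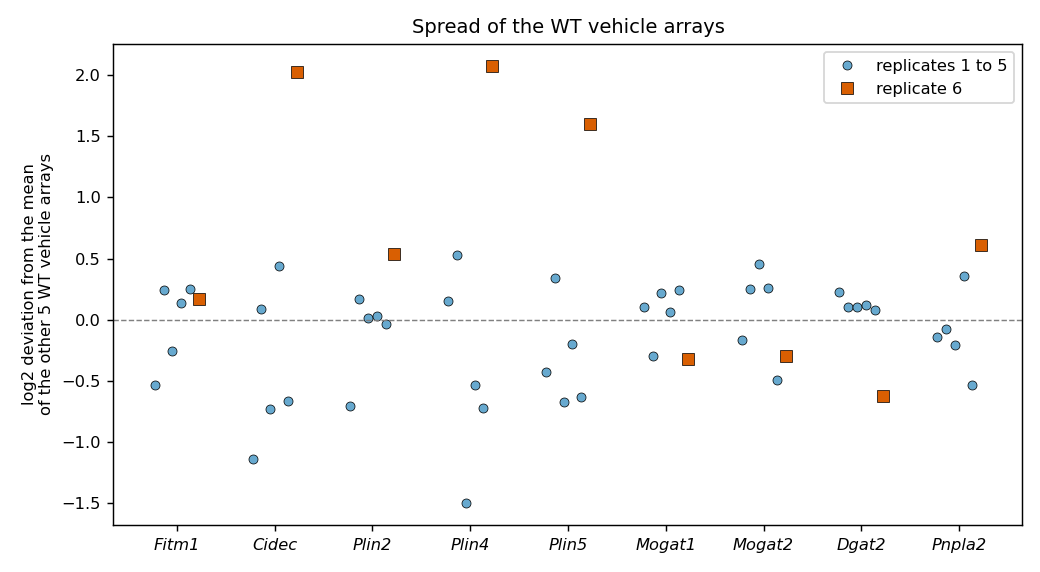
Deviation of each WT vehicle array from the mean of the other 5 WT vehicle arrays (y axis, log2) for the 9 genes (x axis), with replicate 6 marked. Plin4, Cidec and Plin5 of replicate 6 lie 2.08, 2.03 and 1.60 above the other arrays' mean, and Dgat2 lies 0.63 below.

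Across all 24 arrays the 10 pairs of the 5 leading genes had Pearson correlations from 0.738 (Plin4 and Mogat2) to 0.937 (Fitm1 and Cidec). The arrays share the 2 genotypes, so these values contain the genotype difference. The genes whose levels were most like Fitm1 were Pparg (0.969), Abhd4 (0.968) and Aldh1a1 (0.968), those most like Mogat1 were Entpd5 (0.988), Cyp2b13 (0.988) and Gipc2 (0.982), and those most like Cidec were Bhlhb9 (0.972), Igsf11 (0.962) and Cd36 (0.962). For Mogat2 they were Slc35f2 (0.955), Atxn10 (0.954) and Lrrc8b (0.953), and for Plin4 Flot1 (0.907), Vcam1 (0.904) and Bhlhb9 (0.903). Within groups, as deviations from the group means over 24 arrays, the same 10 pairs spread from −0.275 (Plin4 and Mogat2) to 0.713 (Plin4 and Cidec), and from −0.151 to 0.452 over 23 arrays without WT vehicle replicate 6. Plin4 and Plin5 correlated at 0.867, and at 0.729 without that array. Plin2 and Dgat2 ran opposite, at −0.679 and at −0.516 without that array.

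Of the transcription factors known to act on droplet genes, Pparg, which encodes PPARγ, rose with FXR loss. It averaged 8.15 ± 0.05 in FXR KO vehicle livers and 7.04 ± 0.34 in WT vehicle livers, and 8.08 ± 0.18 in FXR KO OCA livers and 6.47 ± 0.19 in WT OCA livers (SD, n = 6). The FXR KO minus WT difference was 1.11 ± 0.12 under vehicle (limma adjusted p = 6.67e-08) and 1.61 ± 0.12 under OCA (limma adjusted p = 9.31e-11), with no overlap in either. Ppara, the PPAR of fatty acid oxidation, differed by −0.24 under vehicle (limma adjusted p = 0.137) and was lower under OCA, at −0.65 (limma adjusted p = 0.000138). Srebf1, a driver of fatty acid synthesis, was lower, at −0.66 under vehicle and −1.22 under OCA, and so was Mlxipl, the carbohydrate-responsive factor ChREBP, at −0.42 and −0.63 (limma adjusted p at most 0.0384). In all 1 of 6 factors was higher and 2 lower under vehicle (median −0.16), against 15.4% and 12.1% of all genes. Between genotypes under OCA 1 was higher and 4 lower (median −0.47), against 17.4% and 13.3% of all genes. OCA called none of the 6 factors in either genotype, and Pparg stood at −0.57 ± 0.12 in WT livers (limma adjusted p = 0.067) and −0.07 in FXR KO livers.

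The upstream steps of glycerolipid synthesis moved both ways. Under vehicle 4 of 12 genes were higher in FXR KO livers and 2 lower (median 0.19), against 15.4% and 12.1% of all genes. Gpat3, a glycerol phosphate acyltransferase, was higher by 1.42 ± 0.20 (limma adjusted p = 3.21e-06), at 7.63 ± 0.20 in FXR KO livers and 6.21 ± 0.54 in WT livers. Gpam, which encodes the mitochondrial enzyme of the same step, was higher by 0.46 (limma adjusted p = 0.00396). Agpat3, which acylates lysophosphatidic acid, was higher by 0.22, while Agpat2, of the same family, was lower, at −0.44 (limma adjusted p = 0.000525). Lpin1, a phosphatidate phosphatase, was lower too, at −0.92 ± 0.27 (limma adjusted p = 0.0121). Under OCA 6 were higher and 3 lower (median 0.17), against 17.4% and 13.3% of all genes. Among them were Gpat3 at 1.72 ± 0.20 and Lpin1 at −1.13 ± 0.27 (limma adjusted p = 0.00195). OCA itself called 0 of 12 in either genotype.

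Among 8 genes of lipolysis and its control, 3 were higher and 1 lower in FXR KO livers under vehicle (median 0.11) and likewise 3 and 1 under OCA (median 0.14). For this and the next list, the shares of all genes called higher and lower were 15.4% and 12.1% under vehicle. Under OCA they were 17.4% and 13.3%. Lipa, the lysosomal acid lipase, was higher by 0.57 ± 0.09 (limma adjusted p = 2.94e-05), Pnpla3, the lipase relative of Pnpla2, by 0.75 ± 0.18 (limma adjusted p = 0.00255) and the monoacylglycerol lipase gene Abhd6 by 0.39 ± 0.10 under vehicle (limma adjusted p = 0.00321). Lipe, hormone-sensitive lipase, was lower, at −0.48 ± 0.10 (limma adjusted p = 0.000513). Of 11 further droplet proteins 3 were higher and 0 lower under vehicle (median −0.06), and 1 higher and 1 lower under OCA (median 0.005). Plin3, a perilipin found in most tissues, was the clearest, at 8.90 ± 0.13 in FXR KO vehicle livers and 8.05 ± 0.13 in WT vehicle livers (0.85 ± 0.08, limma adjusted p = 1.11e-08). Hsd17b11 and Hsd17b13, droplet-associated dehydrogenases, were higher by 0.27 and 0.17 (limma adjusted p = 0.0109 and 0.00867). OCA called none of either list in either genotype.

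**Figure D5:**
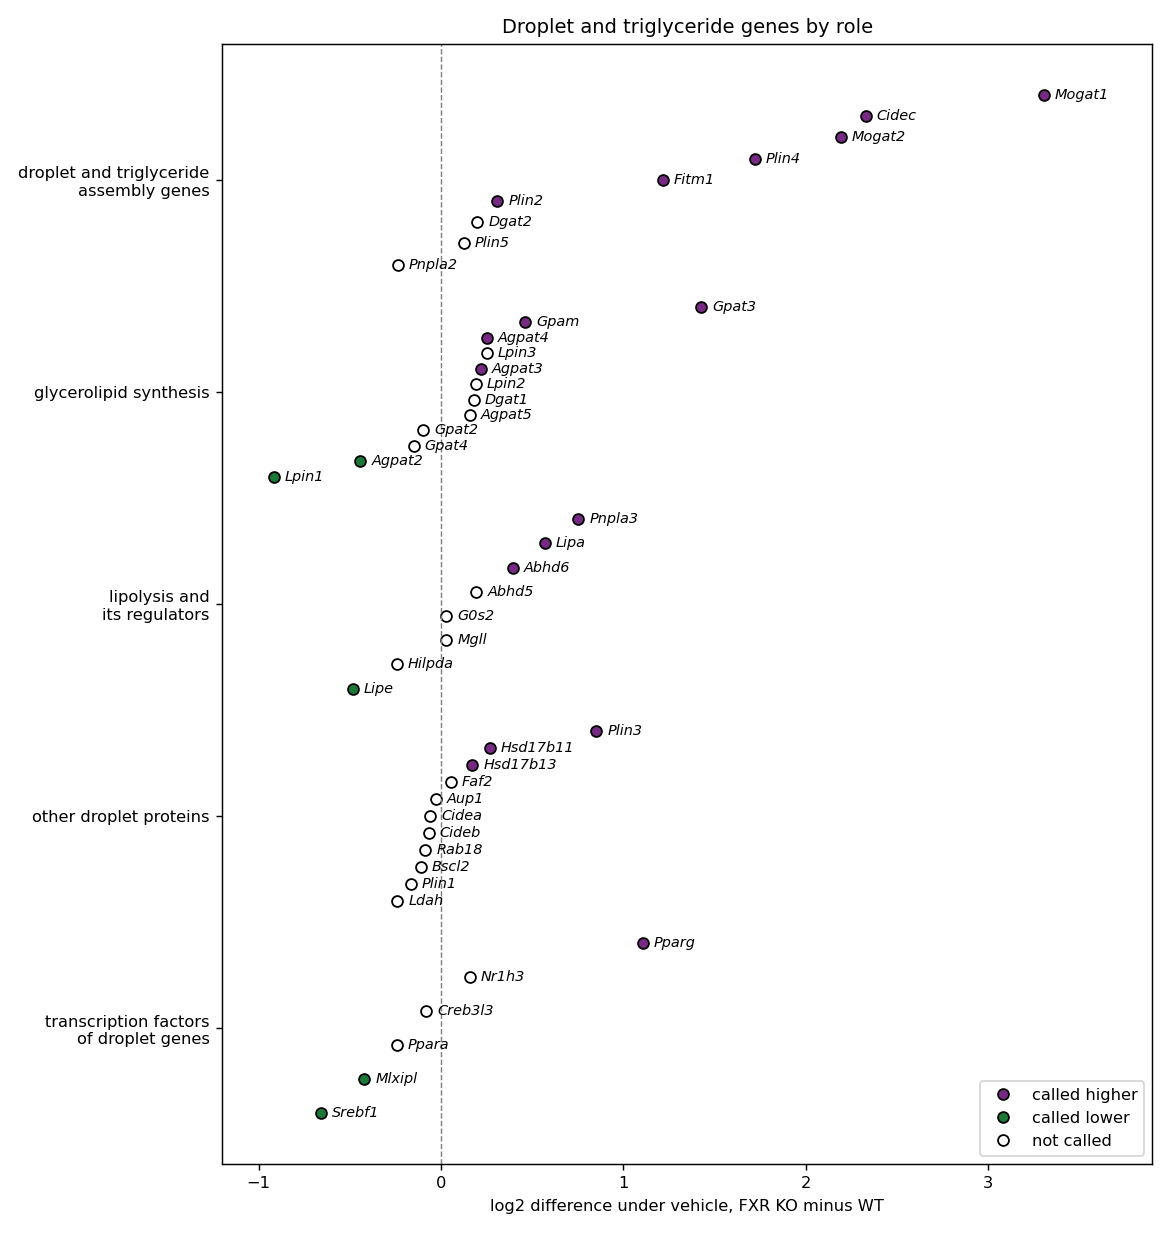
Log2 difference between FXR KO and WT vehicle livers (x axis) for each measured gene of the 5 lists, grouped by role. Filled points passed adjusted p under 0.05 over all genes. Pparg (1.11), Gpat3 (1.42) and Plin3 (0.85) stand out to the right outside the 9 genes, and Lpin1 (−0.92), Srebf1 (−0.66), Lipe (−0.48) and Agpat2 (−0.44) lie to the left of 0.

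The median over the 18820 genes, unlike that over all probe sets, differed between genotypes, at 5.32 to 5.38 on FXR KO arrays and 5.14 to 5.23 on WT arrays. Centring every array on this median shifted the median difference of all genes by −0.17 under vehicle and −0.19 under OCA. It left Mogat1, Cidec, Mogat2, Plin4 and Fitm1 called higher in both comparisons. Small differences depended on it. Plin2 stood at 0.14 (limma adjusted p = 0.306) under vehicle, Plin5 turned to −0.04, and Pnpla2 was called lower at −0.40 under vehicle (limma adjusted p = 0.00692) and −0.30 under OCA (limma adjusted p = 0.0343). Under vehicle the further droplet proteins changed to 1 higher and 6 lower of 11, and the glycerolipid genes to 2 higher and 4 lower of 12, where 9.44% of all genes were called higher and 44.4% lower. Under OCA these shares of all genes were 9.98% and 49% after centring. Of all called genes, 56.1% were higher in FXR KO vehicle livers as deposited, 17.5% after centring and 46.9% after quantile normalization, and under OCA these shares were 56.7%, 16.9% and 46.6%. Without WT vehicle replicate 6 the vehicle counts were 5 higher and 2 lower for glycerolipid synthesis, 3 and 1 for lipolysis, 3 and 1 for the further droplet proteins and 1 and 3 for the transcription factors, against 15.8% and 13.2% of all genes. Within code number 7 they were 5 and 2, 3 and 1, 1 and 1, and 1 and 3 in that order, against 13.9% and 10.1% of all genes. With the number as a block the OCA counts were 3 and 0, 0 and 1, 1 and 1, and 1 and 3, against 7.44% and 4.96% of all genes.

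Markers of the cell types of liver also differed between genotypes, where 15.4% of all genes were called higher and 12.1% lower under vehicle, and 17.4% and 13.3% under OCA. Of 6 hepatocyte markers 0 were higher and 2 lower in FXR KO livers under vehicle, and 0 and 5 under OCA, with medians of −0.10 and −0.15. Of 5 stellate cell markers, cells that store vitamin A in droplets of their own, 4 were higher and 1 lower under each treatment. Their mean per array was 7.94 to 8.34 in FXR KO vehicle livers and 7.57 to 7.88 in WT vehicle livers. Kupffer cell markers were higher for 3 of 6 under vehicle, at 7.99 to 8.41 in FXR KO livers and 7.19 to 8.45 in WT livers, and for 4 of 6 under OCA. Cholangiocyte markers were higher for 2 of 5 under vehicle, at 4.50 to 4.86 in FXR KO livers and 4.36 to 4.45 in WT livers, and for 0 of 5 under OCA. Of 6 sinusoidal endothelial markers 0 were higher and 2 lower under vehicle, and 1 higher and 0 lower under OCA. Of 6 skeletal muscle markers 0 were higher and 2 lower under vehicle, and 0 and 1 under OCA. For fat cells, which express Cidec and Plin4 strongly, 0 of 4 markers were called under vehicle, and under OCA 1 of 4, Retn, was higher in FXR KO livers (0.94 ± 0.32, limma adjusted p = 0.0268). The mean of the 4 was 3.48 to 3.77 in FXR KO vehicle livers and 3.39 to 4.65 in WT vehicle livers, and 3.54 to 3.95 in FXR KO OCA livers and 3.19 to 3.66 in WT OCA livers. The defining marker Adipoq averaged 2.77 in FXR KO vehicle livers and 3.00 in WT vehicle livers, near the lower end of the scale. WT vehicle replicate 5 gave the mean of 4.65, with Adipoq at 4.36 and Retn at 6.13. Cidec read 5.99 and Plin4 5.08 on that array. The part of any of these cells in the droplet gene differences was not tested.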

How the data were processed

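The 24 arrays were used as deposited, as log2 values that the authors made by RMA, per the submitters' processing notes. The sources at hand state neither RMA version nor log base. Values ran from 0.873 to 13.6, and log2 is what RMA gives. Of 35556 probe sets, 21218 carried 1 symbol, 1881 carried several and 12457 were unnamed in the platform annotation used, and symbols were updated by gene number for 21185 through a RefSeq gene table. The probe set with the highest mean was kept per gene, which left 18820. Group means were estimated in 1 model over all arrays by limma 3.58.1 under R 4.3.3, using lmFit and eBayes (20 residual degrees of freedom, prior 4.46). Benjamini-Hochberg adjustment ran over all 18820 genes, with calls at an adjusted p under 0.05. Values are mean ± SD or log2 difference ± SE with 95% intervals. P-values are from moderated t-tests of each difference between groups. These tests use the spread between mice of the same group, pooled over the 4 groups and drawn towards that of all genes. The fit was tested on simulated data, and Python 3.11.15 with matplotlib 3.10.9 drew the figures.

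The genes, the 4 further lists and the marker lists were chosen with earlier results of these data known. All 10 genes were to be named, up to 4 passing genes per further list by smallest p, Pparg and Ppara always, and the 3 genes most correlated with each gene. The text departs from this plan in places. More than 4 glycerolipid genes are named under vehicle. For Plin2, Plin5, Dgat2 and Pnpla2 only the closest gene is given, and the closest genes by deviations are given for some genes only. Markers were to be given as ranges, and Fabp2, Adipoq and the other markers named singly were chosen after their values were seen. Fitm2 and some genes of the lists, such as Agpat1, Ldaf1, Cfd and Adrb3, were not read from a probe set with that symbol alone and are not analysed here. Tried as alternatives were centring by the median of the 18820 genes on an array, quantile normalization, a filter at the median gene, robust eBayes with a trend, a fit with array weights, a fit on the compared groups alone, the code number or letter as a block, a single code number, omission of arrays whose names end in _2, a block on the replicate number, other probe set rules and each array left out in turn. The number block without WT vehicle replicate 6 and the list counts under other settings were added after the data were seen.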

Additional observations from a re-analysis of the deposited data

Results flagged for a closer look

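Each of the 36 sets of 6 values (9 genes in 4 groups) was checked for an array whose gap to its nearest neighbour took more of the group's range than Dixon's 95% critical value for 6 arrays, which chance gives in about 1 set in 20, and 4 sets met this. Mogat1 of FXR KO OCA replicate 2 was 5.31, with the nearest of its group at 6.60 (0.806 of the range). Fitm1 of FXR KO vehicle replicate 6 was 10.98, with the nearest at 11.22 (0.722). Cidec of WT OCA replicate 2 was 6.35, with the nearest at 5.84 (0.697). Dgat2 of WT vehicle replicate 6, the array that stands apart for 532 genes, was 10.96, with the nearest at 11.55 (0.834).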

How the results depend on the processing

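Mogat1, Cidec, Fitm1 and, apart from the block without WT vehicle replicate 6 under OCA, Mogat2 and Plin4 kept their calls between genotypes under every alternative that gave a value and whichever array was left out. Settings are taken in turn, with log2 differences of genes and counts of called genes. Median centring turned Plin5 to −0.04 under vehicle and gave 1 of the 9 genes lower, where 44.4% of all genes were lower and 9.44% higher. Under OCA it gave 2 of 9 lower, where Dgat2 joined Pnpla2 at −0.26 (adjusted p = 0.0202). There 49% of all genes were lower and 9.98% higher. It called 10130 of all genes under vehicle and 11099 under OCA. Quantile normalization turned the difference of the OCA effects of Plin2 to 0.0016, and called Dgat2 under vehicle (0.25, adjusted p = 0.0449). A filter at the median gene removed Mogat1 and Mogat2, which left 0 of the 9 lower with OCA in FXR KO livers, and called 22 of all genes with OCA in WT and 0 in FXR KO livers. Array weights left Fitm1 uncalled with OCA in WT livers (−0.54, adjusted p = 0.105), so 0 of 9 were lower, turned Plin5 to 0.042 there and to −0.13 in the difference of effects, and called 5 of all genes with OCA in WT, 11 in FXR KO and 2 for the difference. With only the groups compared, 0 of 9 were lower with OCA in either genotype (Fitm1 adjusted p = 0.589, Mogat2 0.0823), and 2 and 0 of all genes were called in WT and FXR KO livers. The code number as a block turned Plin4 (−0.55) and Mogat2 (0.10) with OCA in WT livers, Fitm1 (−0.016) in FXR KO livers, and Plin2 (0.17) and Plin4 (0.48) in the difference of effects. It left 0 of 9 lower with OCA in FXR KO livers (Mogat2 −0.89, adjusted p = 0.223) and called 667 of all genes with OCA in WT, 0 in FXR KO, 2334 between genotypes under OCA and 34 for the difference. A single code number turned the same 3 genes by the same amounts (−0.55, 0.10 and −0.016), left 0 of 9 lower with OCA in either genotype, and called 5 of all genes in WT and 0 in FXR KO livers. The number block without WT vehicle replicate 6 compares OCA in WT livers with vehicle replicate 5 alone for that number, and turned Plin5 (0.35), Mogat2 (0.18), Dgat2 (−0.0049) and Pnpla2 (0.14) there, with Fitm1 at −0.78 (adjusted p = 0.1) and 0 of 9 lower. It also turned Fitm1 (−0.016) with OCA in FXR KO livers, where 0 of 9 were lower, Plin5 (−0.073) between genotypes under OCA, where 3 of 9 were higher, and Plin5 (−0.41), Cidec (−0.016), Mogat1 (0.14) and Pnpla2 (−0.29) in the difference of effects. Counts of all genes were then 77, 0, 1834 and 12 in that order. The code letter as a block left 0 of 9 lower with OCA in either genotype, turned Plin5 to 0.0013 in FXR KO livers, and called 2 and 0 of all genes. Without the 4 arrays whose names end in _2, 0 of 9 were lower with OCA in either genotype, Plin2 turned to 0.038 in the difference of effects, and 7 and 0 of all genes were called. Leaving out each array in turn gave 0 to 1 of 9 genes lower with OCA in either genotype, 5 to 7 higher and 0 to 1 lower between genotypes under vehicle (1 lower, Pnpla2 at −0.33, without WT vehicle replicate 5), and 5 to 6 higher under OCA. All genes called then ran from 2 (without WT OCA replicate 5) to 21 (without WT vehicle replicate 5) with OCA in WT, 0 to 4 in FXR KO livers and 0 to 3 for the difference. Between genotypes they ran from 4684 to 5451 under vehicle and from 5349 to 5545 under OCA. Differences that changed sign among these fits ran, with OCA in WT livers, from −0.17 to 0.038 (Plin2), −0.24 to 0.36 (Plin4), −0.30 to 0.082 (Plin5), −0.14 to 0.022 (Mogat1) and −0.043 to 0.10 (Dgat2). With OCA in FXR KO livers they ran from −0.0074 to 0.092 (Fitm1) and −0.26 to 0.058 (Mogat1), and in the difference of effects from −0.10 to 0.10 (Plin2), −0.59 to 0.0046 (Plin4), −0.17 to 0.21 (Plin5) and −0.20 to 0.12 (Mogat1). None of these was called. The cause of these changes was not tested. Same-numbered replicates correlated in their deviations at −0.054 to 0.17, with 2 of 6 pairs above 0.1 for OCA against vehicle in WT livers. Weak correlations cannot exclude a pairing of small effect, so whether the numbers pair the mice is not known. With the replicate block Fitm1 with OCA in WT livers stood at −0.58 (adjusted p = 0.0891), 0 of 9 were lower there, 4 of all genes were called, and Plin2 under vehicle stood at 0.31 (adjusted p = 0.07).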

Other observations

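The 4 genes that followed the genotype least had their closest matches elsewhere. Over the 24 arrays the level of Plin2 was most like that of Rbpms (Pearson correlation 0.829), Plin5 most like Ankrd44 (0.864), Dgat2 most like Plcg1 (0.864) and Pnpla2 most like St3gal5 (0.871). As deviations from the group means, Plin4 ran closest with Apba1 (0.905), Plin5 with Ankrd44 (0.907), Cidec with Usp33 (0.87), Dgat2 with Slc47a1 (0.891) and Pnpla2 with St3gal5 (0.867). These points share WT vehicle replicate 6, which lies far out for Plin4, Plin5, Cidec, Dgat2 and Pnpla2.

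On that array some further genes of lipid handling, picked after their values were seen, were also far from their group. Lpin1 read 12.2 on it against a WT vehicle mean of 11.06 ± 0.88, Hilpda, an inhibitor of the lipase encoded by Pnpla2, 5.22 against 4.46 ± 0.44, and Ppara 9.65 against 10.34 ± 0.38 (SD, n = 6, the array included). Gpam read 9.63 against 10.17 ± 0.30 and Lipa 10.17 against 10.78 ± 0.30.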
